A study of Mus musculus with 8 samples.

Results

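To ask what inhibition of G9a and GLP did to nuclear compartments in mouse embryonic stem cells (mESCs) that lack SETDB1, the Hi-C compartment score of Setdb1 KO + UNC was compared with that of Setdb1 KO. The comparison covered the 23988 autosomal bins of 100 kb with a non-zero score in both libraries, out of 24005 bins scored in any of the 8 libraries of the series. Both libraries came from the #33-6 Setdb1 conditional KO line, in which 4-hydroxytamoxifen (4-OHT) removes SETDB1. Setdb1 KO cells received 800 nM 4-OHT for 5 days. Setdb1 KO + UNC cells received 800 nM 4-OHT for 2 days and then 2 µM UNC0642, an inhibitor of the catalytic activity of G9a and GLP, for 3 days. The general protocol for SETDB1 depletion was 5 days of 4-OHT, but for these cells it is not stated whether 4-OHT stayed on with UNC0642, so the inhibitor and the 4-OHT schedule cannot be told apart. The other 6 libraries came in pairs without UNC0642 and with UNC0642 at 2 µM for 3 days. One pair was Setdb1 WT, the same line without 4-OHT, and its treated counterpart Setdb1 WT + UNC. The remaining pairs were from ADF1-26 cells (Suv39h WT) and from ADF157 cells deficient in SUV39H1 and SUV39H2 (Suv39h DKO), which are separate clones. The study made biological replicates of its Hi-C, but each group had 1 score file here, and whether that file holds a single replicate or a merge is not given in the sources used here. The change therefore has no replicate check and no p-value.

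G9a and GLP form the enzyme complex that deposits most of the H3K9me2 of euchromatin and of the nuclear periphery in mESCs. SETDB1 is an H3K9me3 methyltransferase that KRAB zinc finger proteins and their cofactor TRIM28 recruit to retrotransposons and germline genes. Hi-C counts contacts between genomic loci by proximity ligation, and the leading eigenvector of a chromosome's contact map divides it into the A compartment, which is gene-rich and active, and the B compartment, which is gene-poor and largely at the nuclear lamina. A positive compartment score marks A and a negative score B. The score has no unit, and each chromosome's scores average 0 in each library, so only a redistribution along a chromosome can be seen.

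The bin with the largest gain lay in a cluster of KRAB-type zinc finger genes on chromosome 13 (mm10, chr13:66900001-67900000). The stretch was bounded by the first bin on each side without a gain, so that a higher score with UNC0642 in all of its 10 bins is a description and not a result. Its Zfp genes encode DNA-binding proteins of the family that recruits SETDB1. Promoters of 3 of these genes are shown because their bins held the largest gains of the cluster and because they carry the same short sequence. They are RefSeq promoters on GRCm38.p6 (the mm10 assembly), 300 bases around the start, for Zfp738 (chr13:67683463-67683762, minus strand), Zfp457 (chr13:67306363-67306662, minus strand) and Zfp273 (chr13:67813566-67813865, plus strand). Capitals mark matches to TGGGANNTGTAG, where N is any base.
Zfp738: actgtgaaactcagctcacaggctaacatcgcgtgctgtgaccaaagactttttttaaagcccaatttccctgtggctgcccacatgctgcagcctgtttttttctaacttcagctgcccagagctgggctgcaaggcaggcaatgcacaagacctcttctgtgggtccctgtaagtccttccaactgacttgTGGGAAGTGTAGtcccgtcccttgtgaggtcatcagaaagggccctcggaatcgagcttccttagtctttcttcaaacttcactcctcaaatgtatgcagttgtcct
Zfp457: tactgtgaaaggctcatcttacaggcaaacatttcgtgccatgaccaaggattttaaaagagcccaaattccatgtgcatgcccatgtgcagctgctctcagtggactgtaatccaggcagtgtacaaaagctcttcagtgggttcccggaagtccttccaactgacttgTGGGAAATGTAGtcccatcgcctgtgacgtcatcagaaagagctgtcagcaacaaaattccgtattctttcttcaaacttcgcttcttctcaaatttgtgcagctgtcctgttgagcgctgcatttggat
Zfp273: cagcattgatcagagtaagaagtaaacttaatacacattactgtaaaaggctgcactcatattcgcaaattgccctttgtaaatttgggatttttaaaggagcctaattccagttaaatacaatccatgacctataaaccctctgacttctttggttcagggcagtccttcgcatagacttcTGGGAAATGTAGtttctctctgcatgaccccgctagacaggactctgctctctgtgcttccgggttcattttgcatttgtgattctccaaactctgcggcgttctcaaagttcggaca
The motif is the pattern of the Zfp738 promoter that most Zfp genes of the stretch share, so its frequency there was chosen. It was searched on both strands and was present in a promoter of 19 of the 20 Zfp genes of the stretch that have a RefSeq promoter, and in 1.58% of the 31396 autosomal promoters of the same length. It was also in a promoter of 7 of the 10 other genes of the stretch, and outside the stretch in 38 of 306 Zfp genes. Windows of some of the 7 genes overlap a counted Zfp promoter on the other strand and hold the same site, as Gm17039 does with Zfp953. A match is a description of these windows and is not evidence of a bound factor.

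The 10 bins of the Zfp stretch averaged 0.0317 in Setdb1 KO, whereas Setdb1 KO + UNC averaged 0.0387. Setdb1 KO + UNC had the highest score of all 8 libraries in each of the 10 bins, which follows in part from how the stretch was bounded. Setdb1 WT averaged 0.0307 without UNC0642 and 0.0179 with it, Suv39h WT 0.0227 and 0.0228, and Suv39h DKO 0.0223 and 0.0226. The gain per bin ran from 0.000912, at Zfp708 and Zfp712, to 0.0186, at Zfp738, with a mean of 0.00706. With UNC0642, 0 of the 10 bins scored higher in Setdb1 WT, 5 in Suv39h WT and 4 in Suv39h DKO. The stretch ended sharply. The next bin, without a Zfp gene, lay at -0.0239 without UNC0642 and at -0.0310 with it. The genes of the stretch are paralogs of one another, and reads that could not be placed uniquely among them may have been lost in mapping, whose part in the result was not tested.

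The cluster of the stretch was singled out by the largest gain, so smaller mean changes in other Zfp clusters follow in part from that choice. Of 17 clusters with at least 5 Zfp genes, the 16 others had mean changes between -0.00200, at chr9:22000001-22400000, and 0.00261, at chr7:24000001-24600000. Of their 82 Zfp bins, 43 (52.4%) scored higher with UNC0642, against 50.1% of all bins, and 0 changed by 0.01, against 1.69% of all bins. The other clusters with the most genes, 19 at chr17:21000001-22500000 and 18 at chr4:145500001-147900000, had mean changes of -0.000586 and 0.000681.

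**Figure D1:**
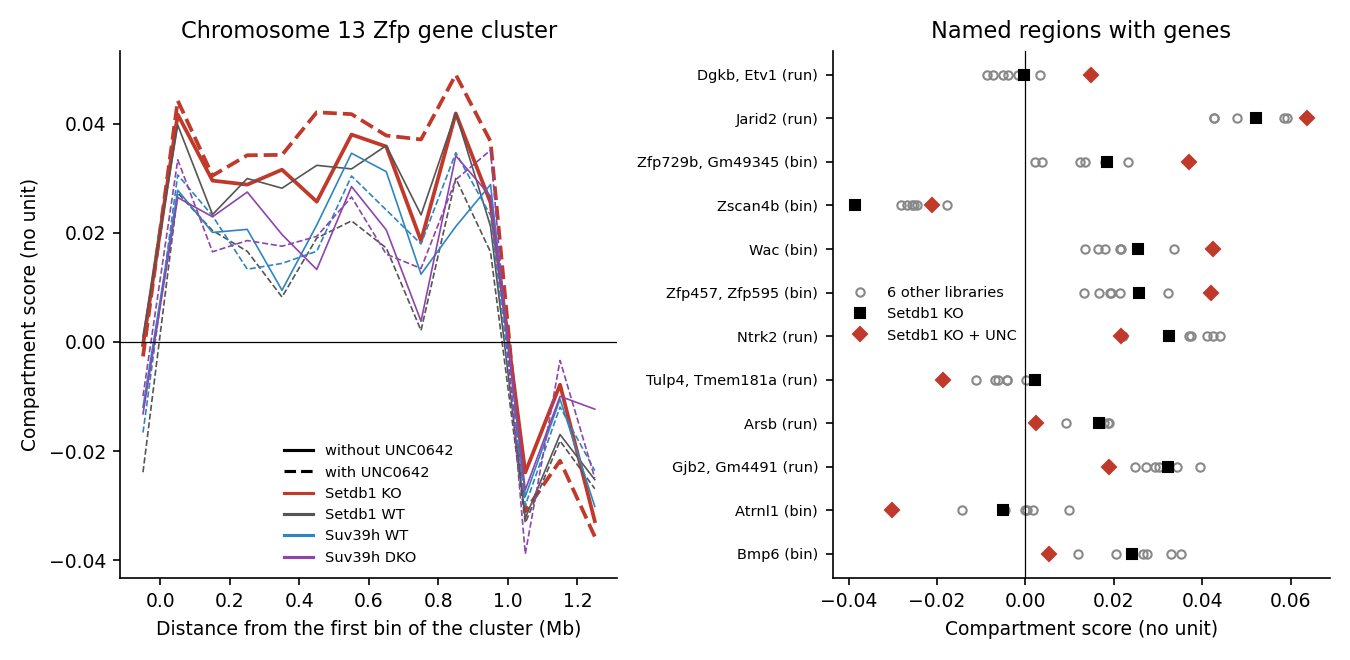
Left, compartment score (y axis, no unit) of each 100-kb bin against distance from the first bin of the chromosome 13 Zfp stretch (x axis, Mb), with solid lines for libraries without UNC0642 and dashed lines for libraries with it. Right, score (x axis) of named runs and bins that hold genes, with squares for Setdb1 KO, diamonds for Setdb1 KO + UNC and open circles for the 6 other libraries. The red dashed line lies above all others in the 10 bins of the stretch, and at Zscan4b it is Setdb1 KO that stands apart.

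Across all bins the change was small. Its standard deviation was 0.00395, the median size was 0.00242, and the middle 95% of bins lay between -0.00802 and 0.00781. Setdb1 KO and Setdb1 KO + UNC correlated across bins at r = 0.990, where bins are not independent replicates. Whether the libraries differed more than biological replicates of one group do was not tested. The same treatment gave larger spreads in the other backgrounds, at 0.00579 in Setdb1 WT, 0.00488 in Suv39h WT and 0.00547 in Suv39h DKO, for which r was 0.978, 0.984 and 0.980. Bins whose score was higher by at least 0.01, the step of score that the study used to class bins, are called gaining, and those lower by as much losing. There were 181 gaining bins (0.755% of all bins) and 224 losing bins (0.934%), together 1.69%. UNC0642 gave 3.51% gaining and 4.62% losing bins in the Setdb1 WT background (8.13% either way). In Suv39h WT cells the shares were 2.26% and 2.53% (4.8%), and in Suv39h DKO cells 3.07% and 3.69% (6.77%). Setdb1 WT + UNC stood apart from its line, which touches each comparison with the Setdb1 WT background. Its mean r with the other Setdb1 libraries was 0.972, below its mean r of 0.976 with the Suv39h libraries, while each of the other 7 had a higher mean r with libraries of its own kind, Setdb1 or Suv39h, than with the other kind. Without it, the Setdb1 KO background still had the smallest spread. The most extreme changes were a gain of 0.0186 and a change of -0.0251, and 3 bins, all losing, passed 0.02. Averaged over 500 kb, 0 regions changed by 0.01. The score files carry no sequencing depth, and its part in these spreads was not tested.

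**Figure D2:**
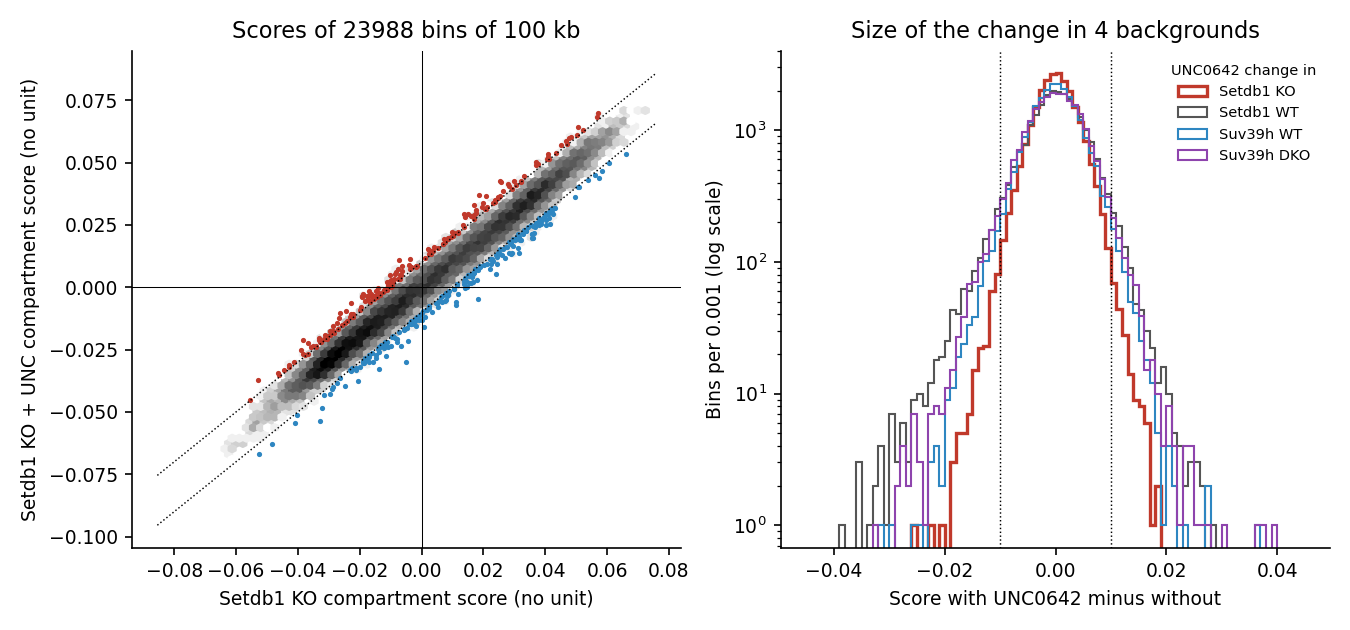
Left, score of each of 23988 bins in Setdb1 KO (x axis) and Setdb1 KO + UNC (y axis), with darker grey for more bins, red points for the 181 gaining bins, blue points for the 224 losing bins and dotted lines at a change of 0.01. Right, number of bins (log scale) by size of the UNC0642 change in 4 backgrounds, where the red curve of Setdb1 KO is the narrowest.

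Compartment identity was kept in 23236 bins (96.9%). From Setdb1 KO to Setdb1 KO + UNC, 372 bins went from B to A (1.55%, 95% Wilson interval 1.40% to 1.72%) and 380 from A to B (1.58%, 1.43% to 1.75%). These intervals cover counting only, and neighbouring bins are not independent. The switching bins lay close to the border between compartments, with a median distance of 0.00205 from a score of 0 in Setdb1 KO for B to A and 0.00203 for A to B, against 0.0242 for bins that kept their sign. Most switches were smaller than 0.01. By that step 29 of the B to A bins (7.80%) and 33 of the A to B bins (8.68%) changed, against 1.48% of bins that kept their sign. A bin has to move to cross 0, so a higher share follows in part from the definition. Of the 372 bins that entered A, 94 were in B in all 6 other libraries and 61 in A in all 6. Of the 380 that left A, 85 were in A in all 6 others and 68 in B in all 6.

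To ask which score classes moved, bins were divided into 10 deciles by Setdb1 WT, a library on neither side of the comparison. The shifts were small beside the spread of single bins, whose standard deviation was 0.00354 in the deepest B decile. In deciles 7 and 8, which hold A bins of moderate score, the median change was -0.000541 and 38 bins gained while 88 lost, out of 4797. The median there was below 0 on 18 of 19 chromosomes. In the strongest A bins, decile 10, the median was 0.000487, with 17 gaining and 10 losing bins out of 2398, and it was below 0 on 3 of 19 chromosomes. In the deepest B decile it was -0.000174. The median of the strongest A bins depended on the ranking. It was 0.000260 when bins were ranked by the mean of the 6 other libraries. Ranked by Setdb1 KO itself it was -0.0000259, but Setdb1 KO is the control here, so that ranking builds in a slope. Quantile normalization of both libraries set the medians of deciles 7 and 8 and of decile 10 to 0. In Setdb1 WT the UNC0642 medians had the opposite signs, at 0.000430 in decile 8 and -0.00108 in decile 10. There the ranking library is itself the control. In Suv39h WT decile 10 had a median of 0.00000955 and in Suv39h DKO of -0.000815.

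A bins differed by gene starts and by GC content. The 3577 A bins without the start of a protein-coding gene had a median change of -0.000896, with 34 gaining and 89 losing bins, and the median was below 0 on 18 of 19 chromosomes. The 7085 A bins with such a start had a median of 0.000127, with 50 gaining and 43 losing bins. Subtracting the mean that the scores of each chromosome imply turned the latter to -0.000139, and adding it moved the former to -0.000449. Split by GC content into 4 equal groups, A bins had a median of 0.000585 in the lowest, with 43 gaining and 25 losing bins, and of -0.000846 in the highest, with 6 and 27. In B the medians were 0.000254 in 2964 bins with a start and 0.000111 in 10360 bins without. A bins without a start had UNC0642 medians of 0.00102 in Setdb1 WT, 0.000175 in Suv39h WT and 0.0000402 in Suv39h DKO, so the lower value was not seen in the 3 other backgrounds. The difference between backgrounds was not tested for this group of bins.

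**Figure D3:**
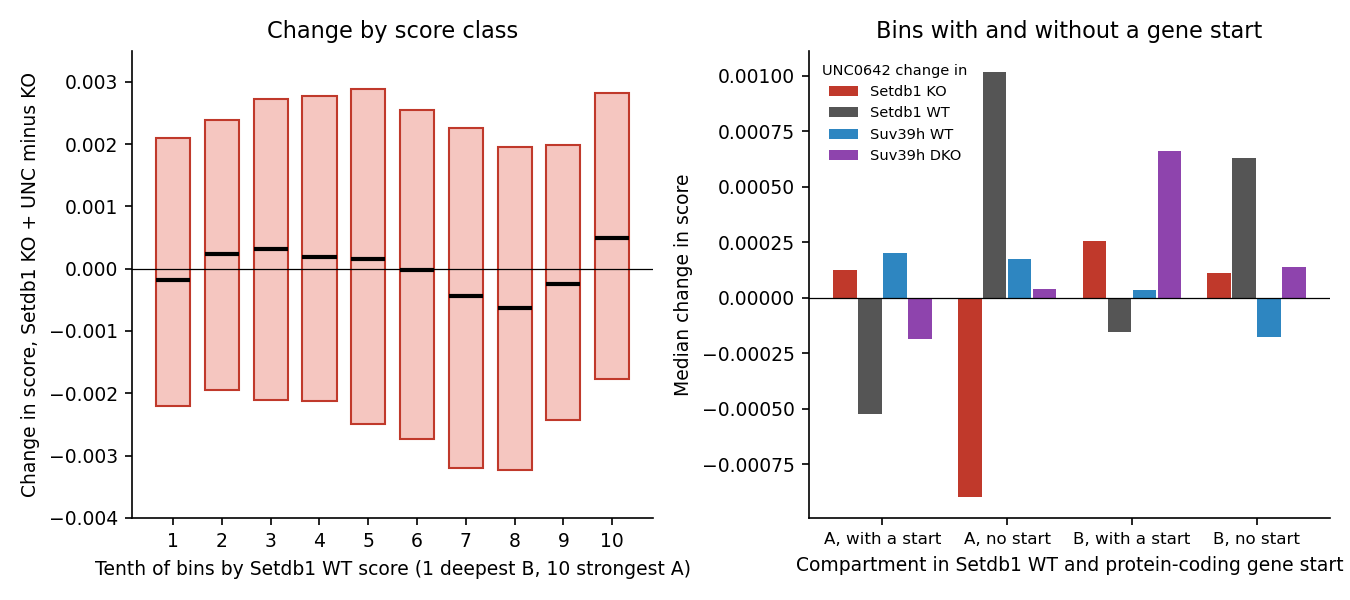
Left, change in score in Setdb1 KO + UNC against Setdb1 KO (y axis) for deciles of bins by Setdb1 WT score (x axis), with black lines at medians and boxes from the lower to the upper quartile. Right, median UNC0642 change (y axis) in A and B bins with and without a protein-coding gene start, for 4 backgrounds. A bins without a start show the lowest median in Setdb1 KO, -0.000896, and the highest in Setdb1 WT, 0.00102.

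Losing bins had a higher GC content than gaining bins. Their median GC content was 43.7%, against 40.6% in gaining bins and 41.4% in all bins, and 160 of 224 (71.4%) held no protein-coding start, against 59.1% of gaining bins and 58.1% of all. Without chromosome 13 the shares without a start were closer, at 65.6% of losing and 61.5% of gaining bins, while median GC was 43.4% and 40.3%. Annotated repeats covered a median of 28.7% of losing bins and 34.5% of gaining bins. Within A, 89 of 132 losing bins (67.4%) held no start, against 33.5% of all A bins, while their median GC content was the same as that of all A bins, 44.7%. Gaining A bins had 42.4% GC. Over all bins the change was lower at higher GC content, with rho = -0.103, between -0.200 and 0.00369 by chromosome. Both kinds of bin were more often at a border of Setdb1 WT compartments, in 26.5% of gaining and 21.4% of losing bins against 14.9% of all. The density of GATC, the site of the DpnII enzyme used for Hi-C, was alike, at 2.50 per kb in gaining, 2.44 in losing and 2.47 in all bins.

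Changed bins were mostly isolated. The 181 gaining bins formed 178 stretches, of which 175 were single bins and 3 were pairs. The 224 losing bins formed 203 stretches with 19 runs of at least 2 bins, 2 of them of 3 bins, and 17.9% of losing bins lay in a run against 3.31% of gaining bins. Neighbours still leaned the same way. Of the bins next to gaining bins 58.3% scored higher, with a median of 0.00107, and of those next to losing bins 37.7% scored higher, with a median of -0.00200. Across the genome the changes of adjacent bins correlated at r = 0.0768, falling to 0.0171 at 1000 kb. The value for adjacent bins was 0.480 in Setdb1 WT, 0.0654 in Suv39h WT and 0.166 in Suv39h DKO.

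Chromosome 13 held the most changed bins. It contains 4.89% of the bins but 115 of the 405 changed bins (28.4%), 51 gaining and 64 losing, so that 9.80% of its bins changed against 1.27% on the other 18 autosomes. Its standard deviation of the change, 0.00592, was the largest of all chromosomes, also as a share of the standard deviation of its scores (20.4%). With UNC0642, chromosome 13 also ranked first in Setdb1 WT (0.0101) and second in both Suv39h WT (0.00602) and Suv39h DKO (0.00675). It also ranked first in the difference between the untreated lines Setdb1 WT and Suv39h WT, which involves no inhibitor, with a standard deviation of 0.00976. The smaller chromosomes 19, 18 and 16 followed, with 4.63%, 4.22% and 3.68% of their bins changed. The squared scores of each chromosome sum to similar values, so scores are larger on small chromosomes and the step of 0.01 favours them. That each file holds unit-length eigenvectors with the mean subtracted is inferred from these sums and is not stated by the authors. Chromosomes 8 and 2 had 2 and 3 changed bins.

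Along chromosome 13, 2 blocks of windows with one sign of the change are described. Their limits were chosen from these values, so their means, counts and ranks restate that choice. From 35 to 65 Mb, a region of mainly A score, the 300 bins changed by -0.00241 on average, 65.3% were lower, and 12 gained while 41 lost. This region had a mean score of 0.0225 without UNC0642 and 0.0201 with it, the lowest of the 8 libraries, whose other values ran from 0.0220 in Setdb1 WT to 0.0261 in Setdb1 WT + UNC. From 75 to 90 Mb, a B region, the 150 bins changed by 0.00227 on average, 32% were lower, and 7 gained while 0 lost. Its mean went from -0.0336 in Setdb1 KO to -0.0313, the highest of the 8, and it lay between -0.0375 and -0.0338 in the 6 other libraries. The 5-Mb windows of Suv39h DKO had the same sign as those of Setdb1 KO, from -0.00381 to -0.000773 between 35 and 60 Mb and from 0.00104 to 0.00196 between 75 and 90 Mb. Those of Suv39h WT had both signs in each block. In Setdb1 WT the windows from 35 to 60 Mb and from 75 to 90 Mb had the opposite sign, up to 0.00914 and down to -0.00498. In the window from 60 to 65 Mb Setdb1 KO was at -0.00108, Setdb1 WT at -0.00529 and Suv39h DKO at 0.00116.

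**Figure D4:**
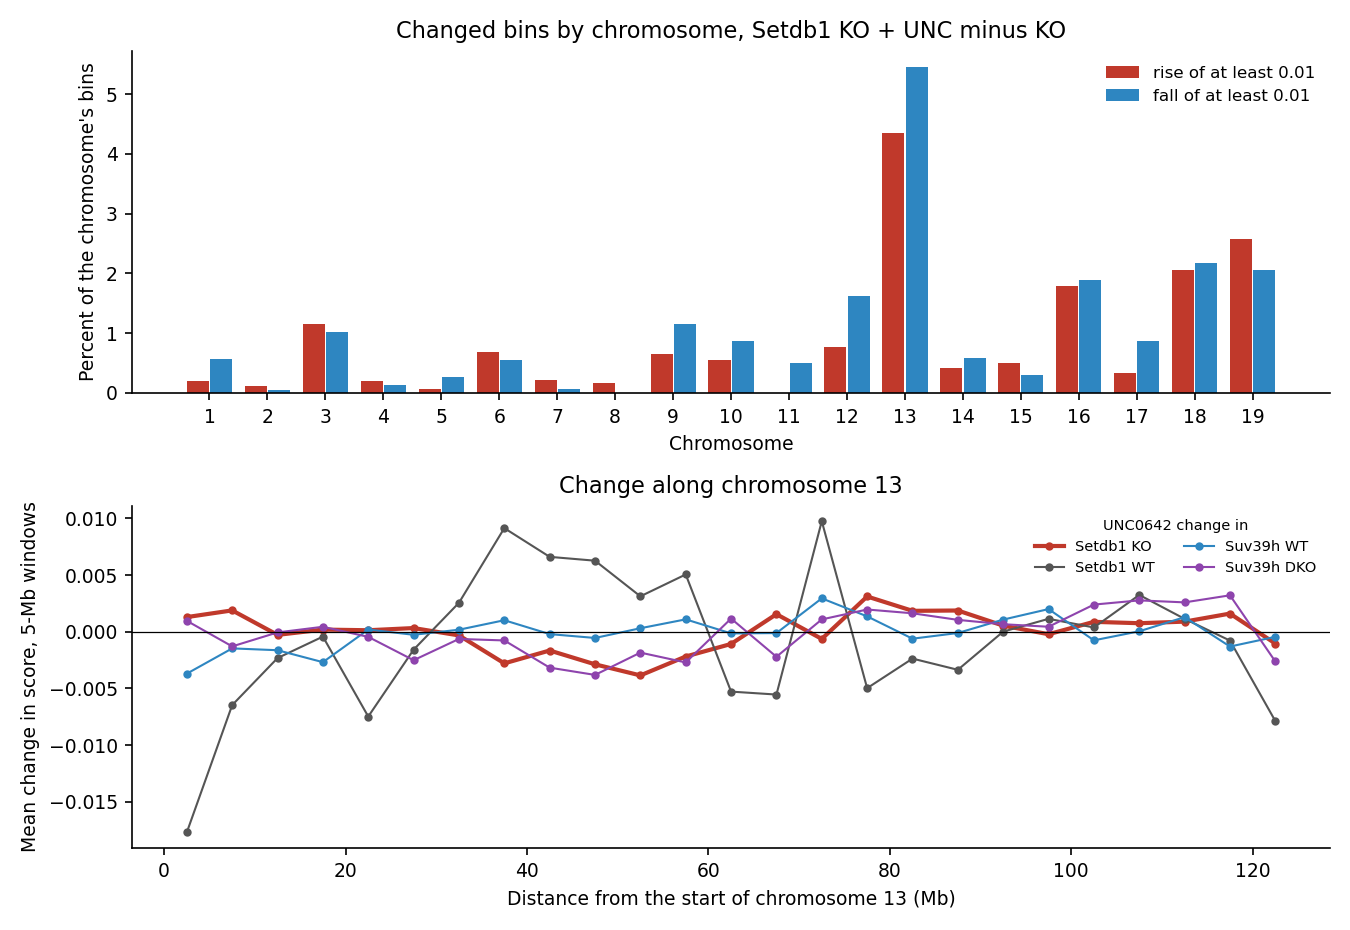
Top, percent of each chromosome's bins (y axis) that gained or lost at least 0.01, by chromosome (x axis). Bottom, mean change in score of 5-Mb windows (y axis) by distance from the start of chromosome 13 (x axis, Mb) for the UNC0642 change in 4 backgrounds. Chromosome 13 stands above all other chromosomes, and from 35 to 60 Mb Setdb1 KO and Suv39h DKO are below 0 while Setdb1 WT is above it.

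Among gaining runs, the largest change was at chr12:38600001-38800000, which overlaps the end of Dgkb, a diacylglycerol kinase gene, and the start of Etv1, an ETS transcription factor gene. Its mean score was -0.000333 for Setdb1 KO, while Setdb1 KO + UNC had 0.0147. Setdb1 WT had 0.00337 without UNC0642 and -0.00876 with it, Suv39h WT -0.00178 and -0.00745, and Suv39h DKO -0.00386 and -0.00499. The next highest library after Setdb1 KO + UNC was thus Setdb1 WT. The run at chr13:44700001-44900000 lies in Jarid2, which encodes a cofactor of Polycomb repressive complex 2. It went from 0.0522 to 0.0637, also the highest of the 8 libraries. The remaining run, at chr13:5300001-5500000, overlaps no protein-coding gene and went from -0.0153 to -0.00309.

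Single gaining bins included that of Zfp738, which went from 0.0185 to 0.0371, and that of Zfp457, Zfp595, Zfp953 and their neighbours, which went from 0.0257 to 0.0421. The bin of Wac on chromosome 18 (7800001 to 7900000), which encodes a regulator of transcription-coupled histone ubiquitination, went from 0.0254 to 0.0424, above the 0.0134 to 0.0336 of the other libraries. Zscan4b, a gene expressed in the two-cell embryo and in rare mESCs that resemble it, was different. Its bin, at chr7:10900001-11000000, lay at -0.0385 in Setdb1 KO, the lowest of the 8 libraries, and at -0.0212 in Setdb1 KO + UNC, inside the range of -0.0282 to -0.0178 of the other 6. The bin chr13:11300001-11400000, without a protein-coding gene, went from -0.00715 to 0.0109 and was above 0 in no other library.

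Among losing regions, the run at chr17:6200001-6400000 overlaps Tulp4, Tmem181a and Dynlt1a, a dynein light chain gene, and went from 0.00213 in Setdb1 KO to -0.0187 in Setdb1 KO + UNC. The 6 other libraries lay between -0.0113 and 0.000207. The largest single change was at chr19:58100001-58200000, the end of Atrnl1, from -0.00506 to -0.0301, with the other libraries between -0.0144 and 0.00986. Bmp6, which encodes a bone morphogenetic protein, went from 0.0241 to 0.00522 at chr13:38400001-38500000, below the 0.0119 to 0.0351 of the other libraries. In all 3 regions Setdb1 KO + UNC was the lowest library.

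The 2 longest losing runs spanned 3 bins each. The run at chr13:58900001-59200000 lies in and beyond Ntrk2, which encodes the neurotrophin receptor TrkB, and went from 0.0324 to 0.0215. Setdb1 WT was almost as low there, at 0.0221, and the other 5 libraries were between 0.0370 and 0.0440. The run at chr13:51900001-52200000, with no protein-coding gene, went from 0.0392 to 0.0261, and Setdb1 WT again was next lowest at 0.0283. The runs at Arsb, a lysosomal sulfatase gene, and at the connexin genes Gjb2 and Gjb6 went from 0.0167 to 0.00236 and from 0.0322 to 0.0190, and both were lowest in Setdb1 KO + UNC. The run chr13:44000001-44200000, which has no protein-coding gene, went from 0.0312 to 0.0173. The losing bin chr12:23600001-23700000, also without one, went from -0.0329, the highest of the 8 libraries, to -0.0535. The others were at -0.0386 in Setdb1 WT, at -0.0508 in Setdb1 WT + UNC and from -0.0840 to -0.0690 in the Suv39h libraries, so that Setdb1 KO + UNC lay within their range.

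Over all 405 changed bins, Setdb1 KO + UNC was farther than Setdb1 KO from the median of the 6 other libraries in 267 (65.9%), against 52.8% of all bins. It was outside their range in 66.9% of changed bins and 36.3% of all bins, and Setdb1 KO in 42.0% and 33.2%. The changed bins were chosen for a gap between these 2 libraries, so shares above those of all bins follow in part from that choice. The shares describe where the 2 libraries lay and carry no test.

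Gene groups were described by the bins that hold their starts, of which 74 of 10051 gained (0.736%) and 64 lost (0.637%), 1.37% in all, with a median of 0.000155. The germline genes that H3K9 or DNA methylation silences showed 0 gaining and 0 losing bins out of 36, with a median of 0.000494. Their largest change was at Tdrd9, a piRNA pathway helicase gene, from 0.0422 to 0.0347. Core pluripotency genes likewise had 0 of 22 either way, with a median of 0.000123, and their largest change was at Prdm14, from 0.0323 to 0.0242. Two-cell-stage genes had 1 gaining bin of 18, that of Zscan4b, and a median of 0.00128. Of 35 bins with genes of the H3K9 methylation machinery, 1 gained, that of Chd4, which encodes the remodelling ATPase of the NuRD complex, from 0.0377 to 0.0494. Their median was 0.00108. Imprinted genes had 0 of 27 and a median of 0.000671, with the largest change, from 0.0297 to 0.0233, at the growth inhibitor gene Cdkn1c. Among 37 bins of lineage regulators, with a median of -0.000375, 1 lost, that of the neurogenic factor gene Neurog1, from 0.0606 to 0.0498. Long neuronal genes had 0 of 42, with a median of -0.000104, and Hox genes 0 of 9, with a median of 0.00155.

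Zfp genes held 6 gaining and 3 losing bins out of 262, with a median of 0.000644, and 3 of the gaining bins were those of the chromosome 13 stretch. The losing bins with the largest changes held Zfp973, from -0.0408 to -0.0546, and Zfp174 with Zfp597, from 0.0431 to 0.0319. Replication-dependent histone genes had 2 gaining bins out of 9, both in the chromosome 13 histone cluster. The bin of Hist1h1d and its neighbours went from 0.0370 to 0.0490 and that of Hist1h4m and its neighbours from 0.0307 to 0.0411, both the highest of the 8 libraries. With UNC0642 the Hist1h1d bin also rose in Suv39h WT, from 0.0169 to 0.0288, and in Suv39h DKO, from 0.0254 to 0.0354. It fell in Setdb1 WT, from 0.0368 to 0.0210. The Hist1h4m bin was lower with UNC0642 in Setdb1 WT, Suv39h WT and Suv39h DKO. Both histone bins lie on chromosome 13, where 9.80% of all bins changed. Ribosomal protein genes, as a group of highly expressed genes, had 0 of 70 bins either way and a median of 0.00106.

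Other clustered gene families, which together span both compartments, each had at most 4 changed bins, beside the 1.37% of all bins with a start. Olfactory receptor genes, which neurons of the nose express, had 1 gaining and 3 losing bins out of 330 and a median of 0.000373. The gaining bin, of Olfr1431 and its neighbours, went from -0.0430 to -0.0310. The losing bins with the largest changes held Olfr24, from 0.00484 to -0.00642, and Olfr15, from 0.0431 to 0.0319. Vomeronasal type 1 receptor genes had 0 of 94, and type 2 receptor genes 1 losing bin of 93, that of Vmn2r48 and Vmn2r49, from -0.0322 to -0.0483. Clustered protocadherins had 1 losing bin of 10, that of Pcdha11 and Pcdha12, which went from 0.00790, the only positive score of the 8 libraries, to -0.00507. Cytochrome P450 genes had 1 gaining bin of 75, that of Cyp2c40, from -0.0164 to -0.00266, and 1 losing bin, that of Cyp2c66, from -0.0298 to -0.0429. Defensin, serpin and C-type lectin genes had 1 gaining bin each, out of 22, 36 and 34, with Defa17, Serpinb9 and Klra2 among their genes. Serpin bins had the lowest median of these lists, -0.00155. The list of pregnancy-specific glycoprotein genes, which also holds Ceacam1, had the highest, 0.00211, with 0 of 21 changed. Keratin, stefin and cystatin, prolactin and major urinary protein genes had 0 changed bins out of 33, 14, 14 and 18. In the lists without a changed bin, the largest changes ranged from -0.00945 at Stfa1 to 0.00957 at the bin of Krt31 and its neighbours.

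The UNC0642 change in Setdb1 KO was then set against the UNC0642 change in the 3 other backgrounds, which share no library with it. Across bins it correlated at r = -0.145 with that in Setdb1 WT, between -0.342 and 0.0122 by chromosome and above 0 on 1 of 19. It correlated at -0.00270 with that in Suv39h WT and at 0.0136 with that in Suv39h DKO. Of the 181 gaining bins, 21 changed in the same direction in all 3 other backgrounds, and of the 224 losing bins 19, while 12.7% of all bins had the same sign in all of them. Of the gaining bins, 4 also gained and 50 lost in Setdb1 WT, where 3.51% of all bins gained and 4.62% lost. Of the losing bins, 15 also lost and 44 gained there. In Suv39h WT 10 gaining bins gained and 9 lost, and 8 losing bins lost and 10 gained. In Suv39h DKO the gaining bins split into 15 and 13, and among the losing bins 16 lost and 20 gained. Of all bins, 2.26% gained and 2.53% lost in Suv39h WT, and 3.07% gained and 3.69% lost in Suv39h DKO.

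Whether the change in Setdb1 KO differed from that elsewhere was tested with limma, in a model with background as a block and a term for UNC0642 in Setdb1 KO. This test assumes that the Setdb1 KO pair varies like the other pairs, and it had 2 residual degrees of freedom before moderation. Of 23972 bins, 0 were higher and 0 lower at a limma adjusted p under 0.05 (0% called), and no adjusted p was below 1.00 as rounded. Without adjustment, 359 bins were higher and 317 lower at p under 0.05, together 2.82% of bins, below the nominal 5%. Each group held 1 library, so the named regions stand as differences between single libraries whatever the test returned. The lack of calls does not show that the change was the same in all backgrounds. For Zscan4b the difference from the other backgrounds was 0.0217 with a standard error of 0.00494, and for Zfp738 it was 0.0206 with a standard error of 0.00985, each with a limma adjusted p of 1.00.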

How the data were processed

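Hi-C was done in 8 groups of mESCs. The authors cut chromatin with DpnII, aligned reads to mm10 with the 4D Nucleome pipeline, built maps with Juicer and derived, per autosome, the leading eigenvector of the KR-normalised map in bins of 100 kb. The deposited compartment score has no unit and carries no counts, so no depth-based interval or floor is given. Read numbers that the study lists by repeat were not used here, because which repeat each file holds is not stated. Each file was taken as 1 sample.

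Scores were subtracted per bin with Python 3.11.15 and pandas 2.3.3. The 17 bins not scored in both libraries were left out. GC content, repeats, GATC sites and GENCODE vM21 starts were taken from GRCm38. The interaction was fitted with limma 3.58.1 in R 4.3.3, with Benjamini-Hochberg adjustment at 0.05, and was tested on simulated data. Groups followed the sample titles, 1 library each.

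Regions named were the 6 longest runs each way of at least 2 bins changing by 0.01, the 5 largest bins each way, and in each gene list up to 2 changed bins each way or the largest change. The Zfp stretch and its motif lie outside this rule. Largest changes of lists without a changed bin are partly given as a range, and 1 lineage regulator bin is not reported here. Members, rules and lists were chosen with earlier results of these data known. Alternatives covered scaling, quantile normalization, centring, 500-kb means, thresholds, chromosome ends, GC content and left-out libraries.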

Additional observations from a re-analysis of the deposited data

How the results depend on the processing

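No paired analysis was possible because each group holds 1 library, other than the background block of the limma fit, without which limma also called 0 bins. Of 186 alternative values of the main results, 135 counted as unchanged. These kept their sign and lay within 1.5 times their value, lay within the interval of a share, or were limma counts that stayed at 0. The limma counts stayed at 0 throughout, with lowest adjusted p from 0.308 to 1.00. All named regions, the Zfp stretch and both chromosome 13 blocks kept their sign under both scalings, both centrings and GC removal, and the stretch stayed between 0.00665 and 0.00746. The cause of the following moves was not tested.

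Means of 500 kb gave 0 gaining and 0 losing bins and 0 runs each way, an SD of 0.00197, switches of 0.967% B to A and 0.651% A to B, a decile 10 median of 0.0000337, adjacent r of 0.137, and r of -0.250, -0.0398 and 0.0615 with Setdb1 WT, Suv39h WT and Suv39h DKO, mean -0.0761. At a threshold of 0.02 there were 0 gaining and 3 losing bins and 0 runs each way; at 0.005 there were 2301 and 2276, with 272 and 284 runs. With Setdb1 KO scores at least 0.005 from 0, switches were 0.267% and 0.230%.

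Adding the implied mean of each chromosome gave 2.11% B to A, 11 losing runs, decile medians of -0.000255 (deciles 7 and 8) and 0.000765 (decile 10), and in A bins -0.000449 without a start and 0.000452 with one. With it subtracted, B to A was 1.27%, the decile 10 median 0.000144 and A bins with a start -0.000139, a reversal. Gaining and losing bins numbered 213 and 197 with the implied mean added, and 163 and 260 with it subtracted, against 181 and 224. Quantile normalization set both decile medians to 0 and gave -0.000534 in A bins without a start, r of 0.00354 with Suv39h WT, a reversal, and 0.0212 with Suv39h DKO. After GC removal the decile medians were -0.000306 and 0.00101, A bins with a start 0.000515, and r 0.00693 with Suv39h WT, a reversal, and 0.0233 with Suv39h DKO. Root-mean-square scaling gave 0.000206 in A bins with a start. Without chromosome ends r with Suv39h WT was -0.00498.

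Ranked by Setdb1 KO the decile 10 median was -0.0000259, a reversal, and ranked by the mean of the 6 other libraries 0.000260. The mean r with other backgrounds was -0.0445, and 0.00545 without the Setdb1 WT pair, a reversal. Alternatives chosen after seeing the data gave 22.9% of changed bins on chromosome 13 with changes scaled to each chromosome's score SD, 1 gaining and 7 losing runs without chromosome 13, and 0.0000522 in A bins with a start when A was set by Setdb1 KO. The median of cytochrome P450 genes reversed to 0.0000688 under quantile normalization, and 21 other alternative medians of gene lists moved by over 1.5 times, among them core pluripotency genes to 0.000654 under quantile normalization, and two-cell-stage genes to 0.000696 and germline genes to 0.000267 as means over gene bodies.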
